A study of Homo sapiens with 18 samples.

Results

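Enzymes and a carrier of serine synthesis and folate-bound carbon transfer were followed in 2 acute myeloid leukemia (AML) cell lines given the mitochondrial complex I inhibitor IACS-010759 (IACS). The 10 genes (PHGDH, PSAT1, PSPH, SHMT1, SHMT2, MTHFD1, MTHFD1L, MTHFD2, ALDH1L2 and SLC25A32) were picked by name for their place in the pathway, and each is 1 row of a table of 45372 gene symbols. RNA sequencing covered 18 libraries of MV4-11, which carries a KMT2A-AFF1 fusion and an internal tandem duplication of FLT3, and of THP1 (THP-1 in 1 field of the labels), which also has a rearranged KMT2A. There were 3 libraries per cell line for DMSO, which served as vehicle, 3 for an 8 h exposure to 50 nM IACS and 3 for a 24 h exposure to the same dose. The sources do not say at which time the DMSO cells were taken, and the same 3 DMSO libraries were the control for both times. The comparisons ask how a block of mitochondrial respiration changed the transcripts of this pathway, when, and whether in both cell lines.

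Cells make serine from a glycolytic intermediate in a short chain of reactions. PHGDH oxidizes 3-phosphoglycerate with NAD+, PSAT1 adds the amino group and PSPH removes the phosphate. SHMT2 in mitochondria and SHMT1 in the cytosol split serine into glycine and a carbon unit carried by tetrahydrofolate. In mitochondria MTHFD2 oxidizes this unit and MTHFD1L releases it as formate, which MTHFD1 in the cytosol builds back into the folate pool for purine and thymidylate synthesis. ALDH1L2 burns the unit to CO2 and makes NADPH, and SLC25A32 brings folate into mitochondria. Complex I is a main site where mitochondrial NADH is turned back into NAD+. Several of these genes, PHGDH, PSAT1, SHMT2 and MTHFD2 among them, are known targets of ATF4, the transcription factor of the integrated stress response, through composite C/EBP-ATF elements with the core TGATGNAA.

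On GRCh38 (GENCODE release 44) PHGDH lies at chr1:119648411-119744218 (plus strand), PSAT1 at chr9:78297125-78330093 (plus), PSPH at chr7:56011051-56051604 (minus), SHMT2 at chr12:57229573-57234935 (plus) and MTHFD2 at chr2:74186172-74217565 (plus). MTHFD1L is at chr6:150865679-151101887 (plus), ALDH1L2 at chr12:105019784-105107643 (minus), SHMT1 at chr17:18327860-18363563 (minus) and MTHFD1 at chr14:64388031-64463457 (plus). The values are for whole genes, so exons, introns and untranslated parts are not told apart.

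The core of the element was looked for in promoters, taken from RefSeq (GRCh38.p14) as 250 bases before to 50 bases after a start site. Promoters were at hand for 6 of the 10 genes (PHGDH, PSAT1, SHMT1, MTHFD1, MTHFD1L and MTHFD2). These 6 genes had 9 promoters in the table. TGATGNAA, read on both strands, was in 3 of the 4 promoters of MTHFD1L, which overlap and share 1 site, and in none of the other 5 genes. It was in 3.62% of the 35116 promoters of the same length. The stretch of MTHFD1L around it (chr6:150866346-150866375, plus strand, the match in capitals) and the 250 bases before the PSAT1 start (chr9:78296875-78297124, plus strand, no annotated exon, no match on either strand) are shown, because MTHFD1L held the only match among these genes and PSAT1, a known ATF4 target, held none.

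MTHFD1L: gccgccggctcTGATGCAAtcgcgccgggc

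PSAT1: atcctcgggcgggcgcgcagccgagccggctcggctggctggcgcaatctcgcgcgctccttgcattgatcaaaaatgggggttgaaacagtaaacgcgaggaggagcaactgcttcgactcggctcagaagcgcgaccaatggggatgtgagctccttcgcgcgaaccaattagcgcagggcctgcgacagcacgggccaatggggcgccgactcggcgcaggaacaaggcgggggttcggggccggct

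A match is a description of the letters. The elements that ATF4 is known to use can lie outside such windows or differ from this core.

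The deposited values are TPM, a measure of transcript abundance that divides a gene's reads by its length and sets every library to the same total. Differences are given as log2 differences of log2(TPM + 1), tested with limma across all genes, and a gene is called where the Benjamini-Hochberg adjusted p is under 0.05 and the log2 difference is beyond a change of 1.5 times, the size the authors used. The pseudocount makes the difference of a low gene smaller than its ratio of TPM. Low values rose in steps of whole reads, from which the reads behind each of the 10 genes were recovered in all 18 libraries (whole within 0.02 read). PSPH had the lowest median over all libraries, at 329 reads (212 to 412), and PHGDH had between 184 reads in a MV4-11 DMSO library and 2585 reads in a THP1 library at 24 h. The relative counting error was between 1.34% and 7.37%, for counting alone. The sources call the 3 libraries of a group independent replicates, and p-values measure the spread between them.

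Both cell lines expressed the myeloid genes SPI1, LYZ, CD33 and PTPRC in every library. MPO was low in both, and MEIS1 was at or near 0 TPM in THP1. CD3E and MS4A1, defining genes of T cells and B cells, stayed at or near 0 TPM. The abundant noncoding RNAs RN7SK, RN7SL1, RN7SL2, RPPH1 and RMRP, 5 in all, held 39.6% to 60.1% of the TPM of a library, which lowers the TPM of all other genes where the share is high. Replicate 3 of THP1 had the highest share in each of its groups (55.8% with DMSO, 60.0% at 8 h and 60.1% at 24 h, against 46.3% to 54.5% in the other THP1 libraries). In that replicate 9 of the 10 genes were at their lowest with DMSO, and 10 of 10 at 8 h and at 24 h. Values for THP1 at 24 h with these 5 RNAs left out of the TPM, and values without replicate 3 of THP1 where a call or a larger difference rests on it, are given beside the results.

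With DMSO, the pathway was unevenly expressed, and the order was nearly the same in both cell lines. In MV4-11 the mean TPM (± SD, n = 3) ran from SHMT2 at 61.0 ± 2.01 and MTHFD2 at 58.9 ± 2.23 over PSAT1 at 44.3 ± 3.32, MTHFD1L at 43.7 ± 3.05, MTHFD1 at 37.5 ± 3.80 and SLC25A32 at 30.1 ± 0.693 to PSPH at 10.6 ± 1.25, SHMT1 at 8.85 ± 0.637, ALDH1L2 at 5.13 ± 0.421 and PHGDH at 1.87 ± 0.309. SHMT2 and MTHFD2 overlapped, as did PSAT1 and MTHFD1L, and PSPH and SHMT1, whereas the other neighbours in this order did not. THP1 began with the same 6 genes, each overlapping the next, from SHMT2 at 54.6 ± 1.83 to SLC25A32 at 29.9 ± 6.81. Then came PHGDH at 13.1 ± 0.879, PSPH at 12.3 ± 2.19, ALDH1L2 at 10.4 ± 0.880 and SHMT1 at 7.22 ± 1.10, where PHGDH stood below SLC25A32 and SHMT1 below ALDH1L2 without overlap. These levels are per length, and the length that gives whole reads differs widely: 2206 bases for PSAT1, 2762 for PSPH, 9217 for PHGDH, 9493 for ALDH1L2 and 12208 for MTHFD1. A gene that is divided by all of its annotated exon bases, rather than by those of its main transcript, ranks lower in this order.

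PHGDH, the first enzyme of the chain, set the cell lines apart. Its TPM with DMSO was 1.94, 2.14 and 1.53 in MV4-11 and 13.7, 13.6 and 12.1 in THP1, a mean 7.03 times as high. The log2 difference was 2.31 (SE 0.21, limma adjusted p = 2.25e-08). ALDH1L2, at 5.52, 5.20 and 4.68 TPM in MV4-11 against 11.4, 10.1 and 9.79 in THP1, was 2.03 times as high in THP1 (0.90, SE 0.18, limma adjusted p = 0.000319). These 2 of the 10 genes were called between the cell lines, both higher in THP1, beside 36.9% of all genes tested. The libraries of the cell lines did not overlap for SHMT1 and SHMT2 either, both lower in THP1, but their log2 differences of -0.27 and -0.16 were not called. Without overlap were thus 4 of the 10, beside 60.8% of all genes. For the remaining 6 genes the difference lay between -0.22 (MTHFD2) and 0.19 (PSPH). Without replicate 3 of each THP1 group, PSPH was at 0.33 and SHMT1 at -0.15. For PSAT1, the second enzyme, it was 0.01 with a 95% interval of -0.42 to 0.43.

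**Figure D1:**
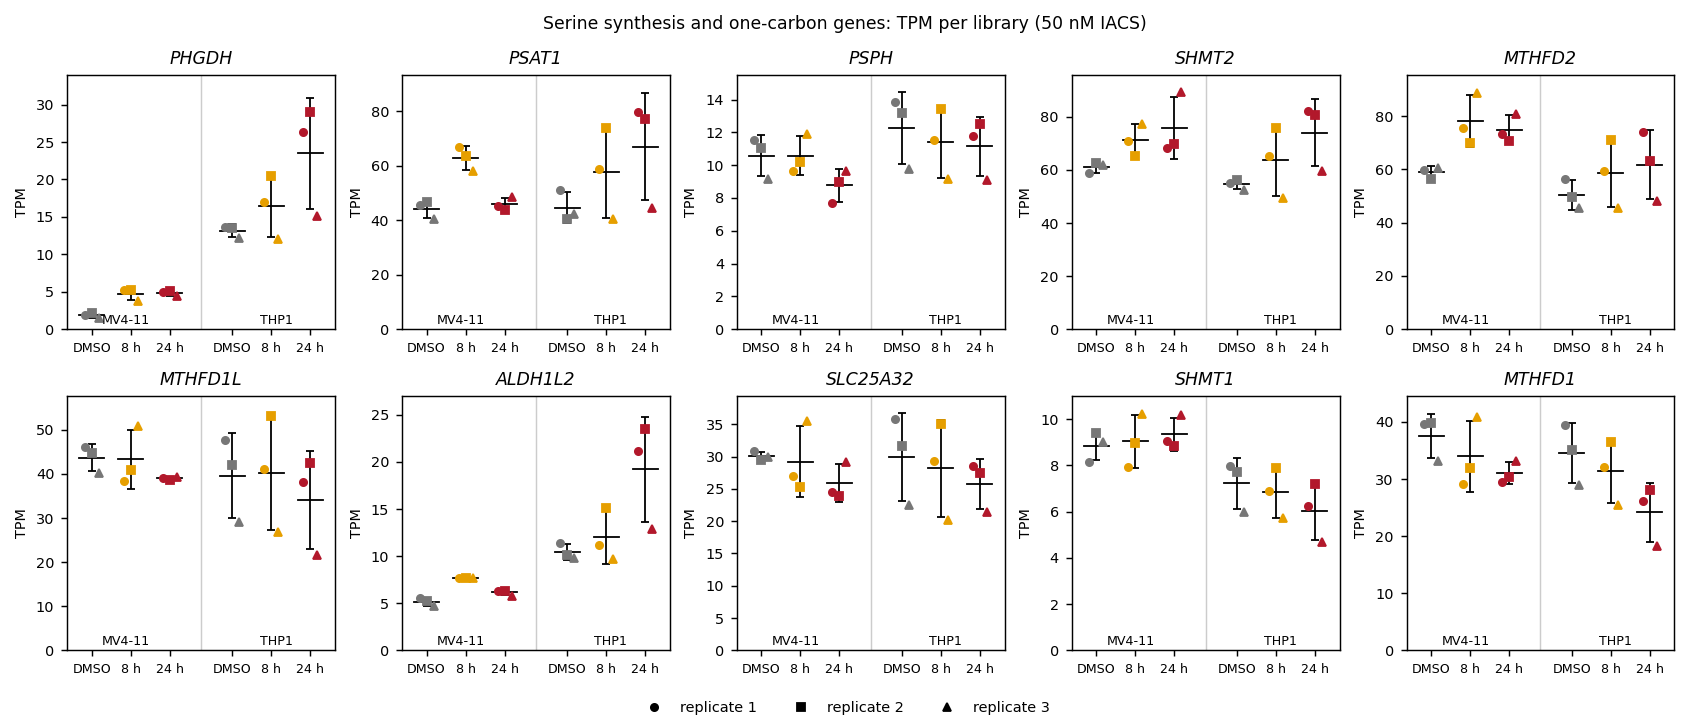
TPM of each gene (vertical axis, from 0) in each library, by cell line and treatment; symbols are replicates 1 to 3, horizontal bars the group means and vertical bars the SD (n = 3). PHGDH and ALDH1L2 were lower in MV4-11 than in THP1 with DMSO, and in THP1 replicate 3 (triangles) sat lowest in nearly every panel.

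In MV4-11, PHGDH was higher with IACS and past the size threshold at both times, and was called at 24 h only. It was at 5.25, 5.29 and 3.77 TPM at 8 h and 4.96, 5.16 and 4.41 TPM at 24 h, against 1.94, 2.14 and 1.53 with DMSO, so that all 6 libraries with IACS were above all 3 with DMSO. The means were 2.55 and 2.59 times the DMSO mean. At 24 h the log2 difference was 1.03 (SE 0.15, limma adjusted p = 0.0334) and PHGDH was the only one of the 10 called, beside 0.0886% of all genes. At 8 h it was 1.00 (SE 0.15), with an adjusted p of 0.069 by limma, and 0 of the 10 were called, beside 0.0148% of all genes. Leaving out replicate 1, 2 or 3 of DMSO, replicate 1 or 2 at 24 h or replicate 2 at 8 h took the call at 24 h away, with a log2 difference of 0.94 to 1.10 and an adjusted p of 0.0681 to 0.245 by limma. Leaving out replicate 3 at 24 h gave a call at 8 h (adjusted p = 0.0313, limma). PHGDH and ALDH1L2 are targets in a guide library that the study built in part from transcripts that changed in these same libraries, so their presence there is not independent evidence of a change.

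PSAT1, the transaminase that follows PHGDH, had its highest values in MV4-11 at 8 h. Its TPM was 45.5, 46.8 and 40.5 with DMSO, 66.8, 63.7 and 58.1 at 8 h, and 45.1, 43.9 and 48.5 at 24 h. The libraries at 8 h stood above those with DMSO and above those at 24 h, while DMSO and 24 h overlapped. The log2 difference was 0.50 (SE 0.11) at 8 h and 0.05 (SE 0.11) at 24 h, and -0.45 between 24 h and 8 h. None of these was called (limma adjusted p = 0.426, 0.893 and 1). The ratio of PHGDH to PSAT1 within a library, looked at after the values were seen, went from 0.0427, 0.0456 and 0.0378 with DMSO to 0.0787, 0.0831 and 0.0648 at 8 h and 0.110, 0.118 and 0.0910 at 24 h, with no overlap between the 3 groups. PSPH, the phosphatase that ends the chain, had 11.5, 11.0 and 9.16 TPM with DMSO, 9.63, 10.2 and 11.9 at 8 h and 7.68, 9.0 and 9.66 at 24 h. These groups overlapped, and the log2 differences were 0.00 and -0.24 (95% interval -0.53 to 0.05 at 24 h).

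Of the mitochondrial enzymes in MV4-11, SHMT2 and MTHFD2 had higher TPM, as deposited, in every library with IACS. SHMT2, which frees the carbon unit from serine, was at 58.7, 62.5 and 61.8 TPM with DMSO, 70.8, 65.1 and 77.4 at 8 h and 68.4, 69.7 and 89.4 at 24 h. MTHFD2, the dehydrogenase after it, was at 59.7, 56.4 and 60.7 TPM with DMSO, 75.6, 69.8 and 88.8 at 8 h and 73.4, 70.5 and 80.9 at 24 h. Neither group at 8 h or 24 h overlapped DMSO, yet the differences were small, at 0.22 and 0.30 for SHMT2 and 0.39 and 0.34 for MTHFD2 (SE 0.12 to 0.13). With the libraries scaled by the median of ratios, as done for THP1 below, SHMT2 overlapped DMSO at both times. It was then at 55.1, 60.5 and 64.5 with DMSO, 74.2, 63.0 and 62.1 at 8 h and 62.3, 63.8 and 85.2 at 24 h. MTHFD2 stayed above DMSO without overlap under this scaling. ALDH1L2, which oxidizes the unit to CO2, was at 5.52, 5.20 and 4.68 TPM with DMSO, 7.71, 7.68 and 7.73 at 8 h and 6.34, 6.34 and 5.82 at 24 h. It was above DMSO at both times and lower at 24 h than at 8 h, again without overlap (as did 4.28% of all genes between 24 h and 8 h, in either direction), with log2 differences of 0.51, 0.23 and, for 24 h against 8 h, -0.28 (SE 0.11 each). None of these 3 genes was called, with adjusted p from 0.286 for MTHFD2 at 24 h to 1 by limma.

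The other 4 genes in MV4-11 had no library group above DMSO. MTHFD1L, which releases formate, had 46.1, 44.7 and 40.2 TPM with DMSO, 38.3, 40.8 and 50.9 at 8 h and 39.0, 38.6 and 39.3 at 24 h. The libraries at 24 h lay just under the lowest with DMSO (log2 difference -0.16, SE 0.12). SLC25A32, the folate carrier, had 30.8, 29.5 and 29.9 TPM with DMSO, 27.0, 25.2 and 35.5 at 8 h and 24.5, 23.8 and 29.2 at 24 h, and likewise all 3 libraries at 24 h were under DMSO (-0.21, SE 0.14). As deposited, the cytosolic enzymes overlapped with DMSO at both times. MTHFD1 had 39.6, 39.9 and 33.1 TPM with DMSO, 29.1, 31.9 and 40.9 at 8 h and 29.5, 30.4 and 33.2 at 24 h (-0.15 and -0.26), and SHMT1 had 8.15, 9.39 and 9.02, 7.94, 8.95 and 10.2, and 9.06, 8.82 and 10.2 TPM (0.02 and 0.07). In all, 5 of the 10 genes were above DMSO without overlap and 0 below at 8 h, beside 8.79% of all genes in either direction. At 24 h 4 were above and 2 below, beside 24.7% of all genes. These counts are for TPM as deposited. Scaled by the median of ratios, MTHFD1 was below DMSO without overlap at both times. Its scaled values were 37.1, 38.6 and 34.6 with DMSO, 30.5, 30.8 and 32.8 at 8 h and 26.9, 27.8 and 31.6 at 24 h. MTHFD1L and SLC25A32 at both times and PSPH at 24 h were then also below without overlap. For SLC25A32 at 8 h the gap was small, with 28.3, 24.4 and 28.4 against 28.9, 28.5 and 31.2 with DMSO. The share of all genes was not counted under this scaling. With an unadjusted p under 0.05 in place of the adjusted one, PHGDH alone was called at either time, beside 0.672% and 1.99% of all genes. The median log2 difference of the 10 genes was 0.12 and 0.06, and that of all genes 0.06 and 0.08.

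In THP1 the larger differences came at 24 h and depended on replicate 3. As deposited, the groups at 8 h overlapped for all 10 genes, beside 4.76% of all genes that did not overlap. PHGDH was at 17.0, 20.4 and 12.1 TPM at 8 h and PSAT1 at 59.0, 73.8 and 40.3, against 13.7, 13.6 and 12.1 and 51.2, 40.3 and 42.2 with DMSO. The log2 differences at 8 h lay between -0.14 (MTHFD1) and 0.33 (PSAT1), with adjusted p of at least 0.941 by limma. By the adjusted p 0 of the 10 were called (0.0144% of all genes), and 0 by the unadjusted p (0.761% of all genes). Without replicate 3 of each THP1 group, a setting chosen after seeing the data, PSAT1 had a log2 difference of 0.53 and PHGDH of 0.42, and still 0 were called, beside 0.144% of all genes.

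At 24 h PHGDH in THP1 had 26.4, 29.0 and 15.1 TPM, all above the DMSO libraries and 1.79 times as high in the mean. ALDH1L2 had 21.2, 23.5 and 12.9 TPM, all above the 11.4, 10.1 and 9.79 TPM with DMSO and 1.84 times as high. In both genes replicates 1 and 2 were far above DMSO while replicate 3 was only just above it. The log2 differences were 0.74 (SE 0.24) for PHGDH and 0.78 (SE 0.22) for ALDH1L2, and neither was called (limma adjusted p = 0.492 and 0.421). SHMT2, at 82.1, 80.6 and 59.5 TPM against 55.2, 56.1 and 52.6 with DMSO, was also higher in all 3 libraries (0.42, SE 0.18). PSAT1, at 79.6, 76.9 and 44.5 TPM, overlapped DMSO through replicate 3 (0.54, SE 0.25), and so did MTHFD2, at 74.1, 63.1 and 48.2 TPM against 56.5, 49.7 and 45.3 (0.27, SE 0.19).

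MTHFD1, the cytosolic enzyme that takes formate up, was lower in THP1 at 24 h. It had 39.5, 35.2 and 29.0 TPM with DMSO, 32.2, 36.5 and 25.4 at 8 h and 26.1, 28.1 and 18.3 at 24 h, where every library was under the lowest with DMSO. The log2 difference at 24 h was -0.51 (SE 0.19, limma adjusted p = 0.538), the mean being 0.700 of that with DMSO. SHMT1, also a cytosolic enzyme, was at 6.24, 7.19 and 4.69 TPM against 7.98, 7.72 and 5.97 with overlap (-0.23). MTHFD1L (38.1, 42.5 and 21.6 TPM at 24 h), SLC25A32 (28.5, 27.4 and 21.4 TPM) and PSPH (11.8, 12.5 and 9.12 TPM) overlapped DMSO, with log2 differences of -0.24, -0.19 and -0.12. So 3 genes were above DMSO and 1 below without overlap in TPM as deposited, beside 13.5% of all genes. Scaled by the median of ratios, PSAT1 and MTHFD2 joined those above, and SHMT1 joined MTHFD1 below. SHMT1 was then at 6.51, 6.75 and 5.93 against 6.87, 7.20 and 6.84 with DMSO. The share of all genes was not counted under this scaling. As deposited, 0 of the 10 were called at 24 h by the adjusted p, beside 0.0431% of all genes, and 2, PHGDH and ALDH1L2, by the unadjusted p, beside 2.2%.

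Those 2 genes passed the adjusted threshold under other fits. Between DMSO and 24 h, same-numbered THP1 libraries deviated together, and with the replicate as a block PHGDH (adjusted p = 0.00675, limma) and ALDH1L2 (adjusted p = 0.00714, limma) were called, 2 of the 10 beside 2.13% of all genes. In that fit PSAT1, SHMT2 and MTHFD1 had adjusted p of 0.0374, 0.0242 and 0.00862 by limma with differences under the size threshold. The median of all genes in THP1 was shifted by -0.12 at both times. Scaling the libraries by the median of ratios took this shift to -0.01 at 24 h and gave a log2 difference of 0.85 for PHGDH and 0.89 for ALDH1L2 (limma adjusted p = 0.0225 and 0.0131), again 2 of the 10, beside 0.754% of all genes. With the 5 abundant noncoding RNAs left out of the TPM, PHGDH (0.91, limma adjusted p = 0.0325) and ALDH1L2 (0.95, limma adjusted p = 0.0268) were likewise called, beside 0.668% of all genes. Scaled by the median of ratios, PHGDH was at 11.8, 12.7 and 13.9 with DMSO and 27.5, 27.2 and 19.1 at 24 h, so that replicate 3 was still the lowest at 24 h. Without replicate 3 of each THP1 group, PHGDH (0.97), ALDH1L2 (0.99) and PSAT1 (0.77) were called, with adjusted p of 0.00236, 0.00468 and 0.0106 by limma, 3 of the 10 beside 1.28% of all genes. In that setting SHMT2 was at 0.54, MTHFD2 at 0.36 and MTHFD1 at -0.45, each under the size threshold.

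**Figure D2:**
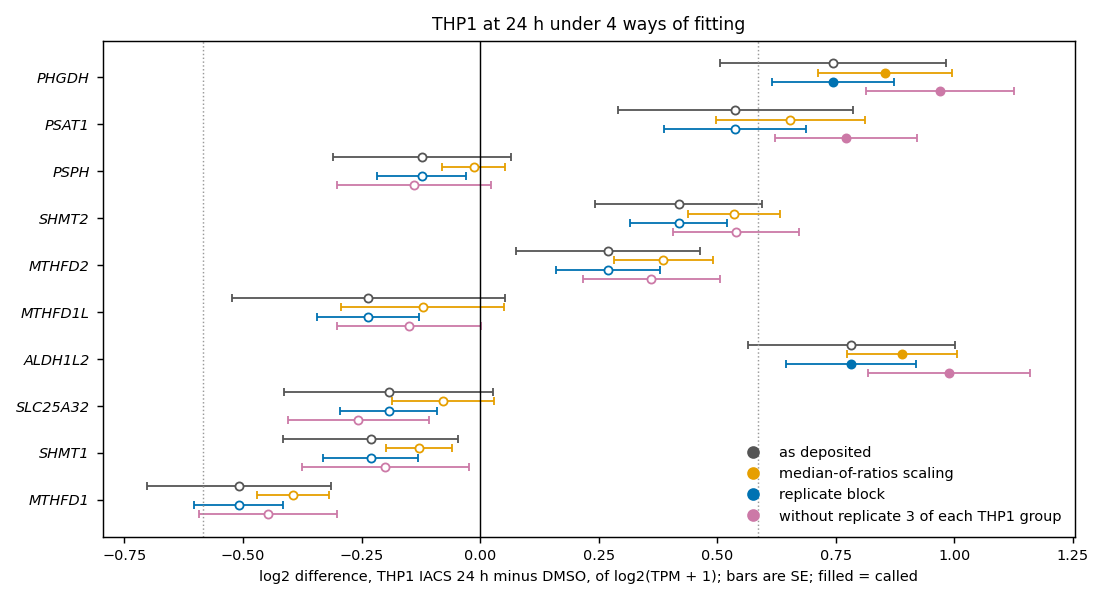
Log2 difference between THP1 at 24 h of IACS and DMSO for each gene (horizontal axis, points with SE) under 4 ways of fitting; filled points were called and dotted lines mark the size threshold. PHGDH and ALDH1L2 lie between 0.74 and 0.99 in each fit and were called in every fit but the one as deposited.

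Between 8 h and 24 h in THP1, ALDH1L2 went from 11.2, 15.1 and 9.69 to 21.2, 23.5 and 12.9 TPM, 1.60 times as high in the mean and with overlap. The log2 difference was 0.62 (SE 0.22, limma adjusted p = 0.819), and with the replicate block its adjusted p was 0.0374 by limma, the only one of the 10 called in that fit, beside 0.818% of all genes. Without the block 0 of the 10 were called in this comparison (0.00718% of all genes) and 1, ALDH1L2, with an unadjusted p (1.19% of all genes). Without replicate 3 of each THP1 group it was at 0.73 and not called (adjusted p = 0.0640, limma). PHGDH differed by 0.46 (SE 0.24) and MTHFD1 by -0.37 (SE 0.19) over the same interval. For MV4-11 the comparison of 24 h with 8 h also had 0 of the 10 called, beside 0% of all genes, and 0 with an unadjusted p, beside 0.465%.

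**Figure D3:**
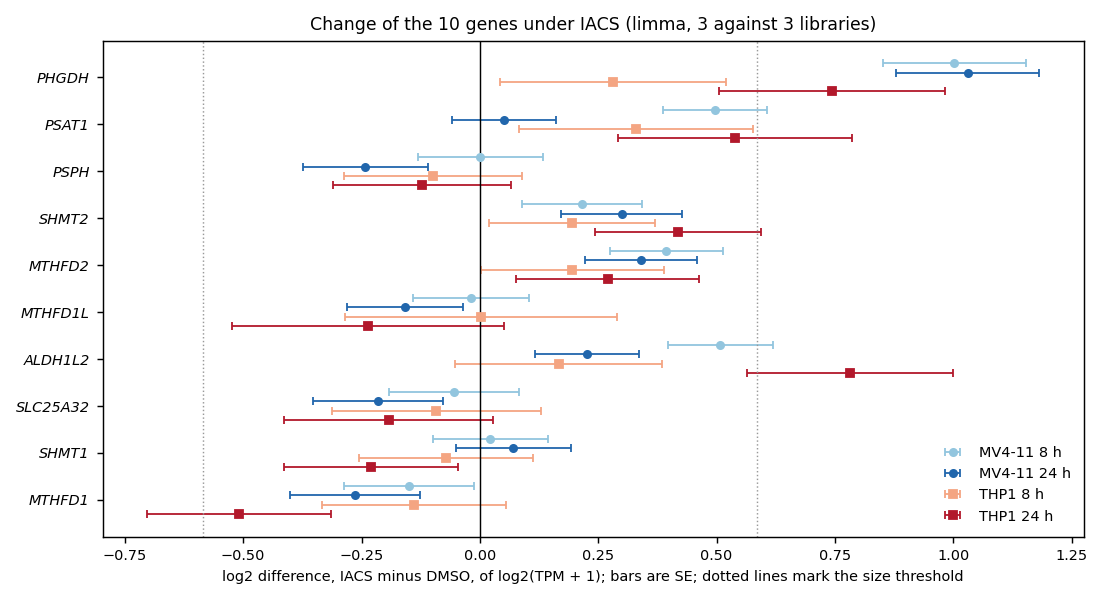
Log2 difference from DMSO (horizontal axis, points with SE) of the 10 genes in both cell lines at 8 h and 24 h; dotted lines mark the size threshold. PHGDH lies past that line in MV4-11 at both times and in THP1 at 24 h, ALDH1L2 in THP1 at 24 h, and MTHFD1 is below 0 in each of the 4 comparisons.

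Over both cell lines together, in 1 fit of 18 libraries, PHGDH was called at 24 h with a mean log2 difference of 0.89 (SE 0.15, limma adjusted p = 0.00981), as 1 of the 10 beside 0.213% of all genes. ALDH1L2 followed at 0.50 (SE 0.13, adjusted p = 0.0722 by limma), then SHMT2 at 0.36 (SE 0.11), MTHFD2 at 0.30 (SE 0.12) and PSAT1 at 0.29 (SE 0.14). MTHFD1 was at -0.39 (SE 0.12, limma adjusted p = 0.168), while MTHFD1L, SLC25A32, PSPH and SHMT1 lay between -0.20 and -0.08. At 8 h 0 of the 10 were called, beside 0.0708% of all genes, with PHGDH at 0.64 (SE 0.15, limma adjusted p = 0.218) and called by the unadjusted p, beside 0.298% of all genes. Leaving out THP1 replicate 3 at 24 h changed these counts: ALDH1L2 was then also called at 24 h (0.63, limma adjusted p = 0.00839, beside 0.276% of all genes) and PHGDH at 8 h (adjusted p = 0.0347 by limma, beside 0.0921%).

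Whether the 2 cell lines responded differently was tested as the difference of the differences, THP1 minus MV4-11. By this test 0 of the 10 were called at 8 h and 0 at 24 h, each beside 0.00708% of all genes. For PHGDH at 8 h it was -0.72 (95% interval -1.34 to -0.10, limma adjusted p = 0.910), the only one past the size threshold with an unadjusted p under 0.05, beside 1.53% of all genes. At 24 h it was -0.29 (-0.90 to 0.33). These values moved with the setting. With a pseudocount of 0.1 they were -1.01 at 8 h and -0.56 at 24 h, and with median-of-ratios scaling -0.52, under the size threshold, and -0.08. For ALDH1L2 at 24 h the difference was 0.56 (0.03 to 1.08, limma adjusted p = 0.690) and for PSAT1 0.49 (-0.12 to 1.09). The interval lay within the size threshold for 3 of the 10 genes at 8 h (SHMT2, SHMT1 and MTHFD1) and for 2 at 24 h (SHMT2 and MTHFD2). For the others it reached past the threshold, and for these the data do not show that the cell lines responded alike.

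Ratios of 2 genes within a library do not depend on its scaling. MTHFD2, the mitochondrial dehydrogenase, against MTHFD1, the cytosolic enzyme that covers the same step, was 1.51, 1.41 and 1.83 in MV4-11 with DMSO, 2.60, 2.19 and 2.17 at 8 h and 2.49, 2.32 and 2.44 at 24 h. In THP1 it was 1.43, 1.41 and 1.56 with DMSO, 1.84, 1.95 and 1.79 at 8 h and 2.83, 2.25 and 2.63 at 24 h. All 12 libraries with IACS were thus above the DMSO libraries of their cell line, replicate 3 of THP1 included. MTHFD1 itself was lower with IACS in the mean, so many genes gained against it: the ratio to MTHFD1 was above DMSO without overlap for 37.5% of all genes in MV4-11 at 8 h, 49.2% at 24 h, and for 5.79% in THP1 at 8 h and 65% at 24 h. In all 4 comparisons at once it was so for 2.07% of the genes.

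SHMT2 against SHMT1, the mitochondrial and the cytosolic form of 1 enzyme, was 7.21, 6.66 and 6.85 in MV4-11 with DMSO, 8.92, 7.28 and 7.58 at 8 h and 7.55, 7.91 and 8.79 at 24 h. In THP1 it was 6.92, 7.27 and 8.81 with DMSO, 9.47, 9.59 and 8.70 at 8 h and 13.2, 11.2 and 12.7 at 24 h. It was above DMSO without overlap in each comparison but THP1 at 8 h. The ratio of a gene to SHMT1 did so for 7.41% and 9% of all genes in MV4-11 at 8 h and 24 h, for 2.74% and 21.8% in THP1, and for 0.183% in all 4. MTHFD1L to MTHFD1 moved less, from a mean of 1.17 ± 0.0472 (SD, n = 3) to 1.28 ± 0.0357 and 1.26 ± 0.0707 in MV4-11 and from 1.13 ± 0.116 to 1.26 ± 0.199 and 1.38 ± 0.180 in THP1. ALDH1L1, the cytosolic counterpart of ALDH1L2, was listed at 0 in most libraries, so no ratio is given.

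**Figure D4:**
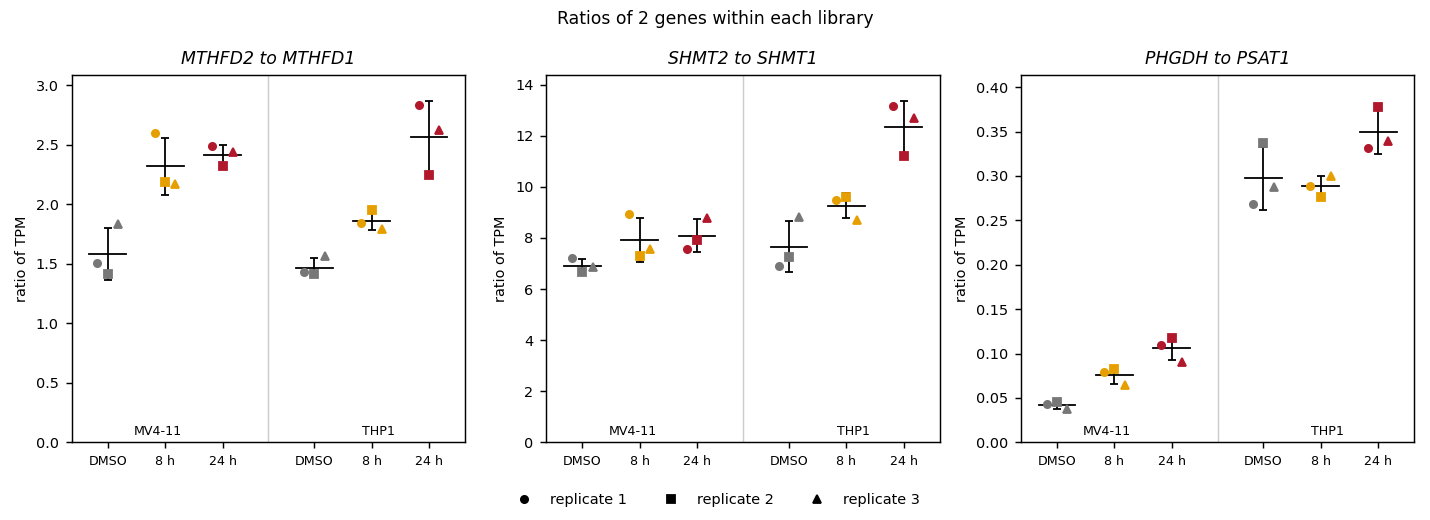
Ratio of the TPM of 2 genes within each library (vertical axes, from 0), by cell line and treatment; symbols are replicates 1 to 3, with the group mean and SD (n = 3). MTHFD2 to MTHFD1 is above the DMSO range in all 12 libraries with IACS, and PHGDH to PSAT1 is lower in MV4-11 than in THP1 throughout.

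Genes around the pathway were called in no comparison with IACS. Lists were written for the folate cycle and users of formyl-folate (12 of 14 genes tested), the methionine cycle (6 of 7), glycine cleavage (5 of 7 in MV4-11 and 6 in THP1), serine transport (8 of 8) and serine use (11 of 13 in MV4-11 and 10 in THP1). By the adjusted p 0 genes of any list were called at 8 h or 24 h in either cell line. By the unadjusted p only AMT, of the glycine cleavage system, was called, in MV4-11 at 24 h (0.66, limma unadjusted p = 0.0100), beside 1.99% of all genes. AMT was near the filter of 1 TPM, with a mean of 0.842 TPM with DMSO and 1.88 TPM at 24 h. The list medians at 24 h lay between -0.12 and 0.16 in MV4-11, where the median of all genes was 0.08, and between -0.18 and -0.04 in THP1, where it was -0.12. At 24 h in MV4-11 the purine enzyme ATIC was lowest in the folate list, at -0.45. GCSH, the carrier protein of glycine cleavage, was lowest in its list in both cell lines (-0.39 and -0.54), as was the amino acid carrier SLC38A5 among transporters (-0.42 and -0.50). CBS, which condenses serine with homocysteine, was highest in serine use (0.57 and 0.30).

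Between the cell lines with DMSO 15 of the 42 tested genes of these lists were called (35.7%), near the 36.9% of all genes. THP1 had more CBS (25.9 against 1.60 TPM in the mean, log2 difference 3.36), the serine dehydratase-like gene SDSL (14.3 against 2.68) and the neutral amino acid transporter SLC38A1 (41.3 against 4.15, log2 difference 3.05). It had less SPTLC2, a subunit of the enzyme that starts sphingolipid synthesis from serine (15.6 against 66.7 TPM, -2.03), and less of the transporters SLC1A4 (19.6 against 38.3) and SLC1A5 (80.9 against 145.1). Of the folate list TYMS, SLC46A1 and MTFMT were higher and GART lower in THP1. GCAT, PTDSS2, SARS2 and PSTK were lower, and no gene of the methionine cycle was called.

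PHGDH and ALDH1L2 were the 2 of the 10 whose group means spanned more than the size threshold within a cell line. The 3 genes nearest to each were sought among 12545 others, by the distance between the 6 group means of log2(TPM + 1) after centring each cell line. PHGDH was nearest to the small RNA gene SCARNA22 (distance 0.21), which had a mean of 43.9, 84.1 and 89.5 TPM in MV4-11 and 29.8, 27.9 and 38.9 TPM in THP1 with DMSO, at 8 h and at 24 h. RF02271_6 (0.21) and the tight junction gene CLDN7 (0.36) came next. For ALDH1L2 these were AC003005.1 (0.21), AC091564.6 (0.22) and LINC01481 (0.23), each under 7 TPM in the mean of every group.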

How the data were processed

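RNA of 18 libraries of MV4-11 and THP1 was isolated with on-column DNase, prepared with a TruSeq kit and sequenced as 100-bp paired-end reads. The authors trimmed reads, used CLC Genomics Workbench v20 with GRCh38 to align and count, and deposited TPM. Annotation release, use of strand and treatment of reads shared with pseudogenes (known for PSAT1, PSPH, MTHFD2, MTHFD1 and SHMT1) are not given in the sources used here. From the deposited TPM, log2(TPM + 1) was fitted with limma 3.58.1 (R 4.3.3, variance trend) leaving out genes whose mean was under 1 TPM, with 9 libraries within a cell line (24 h against 8 h included) and 18 for the comparisons across cell lines. The fits were tested on simulated data. An exact Kruskal-Wallis test over the 3 groups of a cell line was an alternative (the study followed its own with Dunn's test, not run here), as were other scalings, filters, pseudocounts and leaving out libraries. The 10 genes and the lists were chosen with earlier results of these data known. All 10 genes are named. Other genes are named where called, at the ends of a list or nearest in pattern, except that a few are not reported here. Reads were recovered from TPM steps (74.7% to 76.0% of low values whole) with exon lengths of GENCODE release 44 for low genes and, for each of the 10, the length that gave whole reads (not the GENCODE length for 5 of them), for depth only. Whether they are reads or read pairs is not known. Same-numbered libraries deviated together (correlation across genes over 0.1 in all 3 pairs) for THP1 DMSO and 24 h (0.15, 0.16 and 0.32), THP1 8 h and 24 h (0.18, 0.28 and 0.36) and MV4-11 8 h and 24 h (lowest 0.11, and 0.09 after median-of-ratios scaling). The 3 other pairs of groups within a cell line did not pass 0.1 in all 3 correlations, though some were higher. These were 0.03, 0.09 and 0.20 for MV4-11 DMSO and 8 h, and 0.27, 0.07 and 0.44 for MV4-11 DMSO and 24 h. For THP1 DMSO and 8 h they were 0.04, 0.14 and 0.48.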

Additional observations from a re-analysis of the deposited data

How the results depend on the processing

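With 3 libraries a group, 1 library could decide a call, and the same controls served both times. Counts of the 10 genes called stayed as reported under most alternatives. In MV4-11 at 8 h the count went from 0 to 1 with an unadjusted p, with the replicate block and with only the libraries compared, and at 24 h from 1 to 0 without a filter, with a mean of at least 10 TPM (which leaves PHGDH out) and by the exact Kruskal-Wallis test over the 3 groups (p = 0.05 for PHGDH over 1680 arrangements, and the lowest, p = 0.00357, for ALDH1L2, whose differences were under the size threshold). In THP1 at 24 h it went from 0 to 2 with an unadjusted p, median-of-ratios scaling, TPM without the 5 noncoding RNAs or the replicate block, and to 3 with block and scaling together or without replicate 3 of every group. For 24 h against 8 h in THP1 it was 1 with an unadjusted p, the scaling, the block and both. For the mean of both cell lines at 8 h it was 1 with an unadjusted p, the scaling, TPM without the 5 RNAs, the block, both, and without THP1 replicate 3, which gave 2 at 24 h. The difference between the cell lines had 1 at 8 h with an unadjusted p and 1 at 24 h with block and scaling (ALDH1L2, 0.76). The replicate block changed no other count. Leaving out 1 library gave 0 to 1 in MV4-11 (both times) and for the mean at 8 h, and 1 to 2 for the mean at 24 h, with the libraries named above. Other causes were not tested.

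Signs turned in uncalled differences near 0. With the scaling, with or without the block, PSPH was -0.066 and SHMT1 -0.045 in MV4-11 at 8 h, PSAT1 -0.047 and SHMT1 -0.019 in MV4-11 at 24 h, PSPH 0.029, SHMT1 0.050 and SLC25A32 0.041 in THP1 at 8 h, and PSAT1 -0.0093 between the cell lines. Without the 5 RNAs PSPH was -0.012 in MV4-11 at 8 h, PSAT1 -0.00300 in MV4-11 at 24 h, PSPH 0.0065, SHMT1 0.030 and SLC25A32 0.018 in THP1 at 8 h, PSPH 0.012 in THP1 at 24 h and SLC25A32 0.037 between the cell lines. Without replicate 3 of every THP1 group, MTHFD1L was 0.038 and SLC25A32 0.16 between the cell lines. Leaving out 1 library, the differences that turned ranged in MV4-11 at 8 h from -0.091 to 0.061 (PSPH), -0.061 to 0.10 (SHMT1), -0.14 to 0.062 (MTHFD1L) and -0.20 to 0.040 (SLC25A32), and at 24 h from -0.011 to 0.091 (PSAT1). In THP1 at 8 h they ranged from -0.24 to 0.036 (PSPH), -0.19 to 0.037 (SHMT1), -0.22 to 0.26 (MTHFD1L) and -0.28 to 0.12 (SLC25A32), and at 24 h from -0.27 to 0.0034 (PSPH) and -0.44 to 0.053 (MTHFD1L). Between the cell lines they ranged from -0.096 to 0.072 (PSAT1), -0.31 to 0.038 (MTHFD1L) and -0.17 to 0.16 (SLC25A32).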
